A study of Mus musculus with 6 samples.

Results

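Interferon-stimulated genes are the transcripts that a cell makes in response to interferons, and 40 of them were followed here in B cells with and without Prmt1, the enzyme that deposits most of the asymmetric dimethylarginine in the cell. They were chosen by symbol for what they are known to do, without a rule on measured values, and all 40 were found among the 39017 genes of the count table. The cells were induced germinal center B cells (iGBs), which are splenic B cells of C57BL6/J mice grown on 40LB fibroblasts, an irradiated feeder line that displays CD40L and secretes BAFF, in the presence of IL-4. They were collected 3.5 days after plating, when the feeders were depleted with antibody-coated beads. The labels give the IL-4 dose as 5 ng/ml, and the study's methods give a lower one. Control iGBs (3 libraries) carried Cg1-cre alone, and Prmt1-null iGBs (3 libraries) carried Cg1-cre together with floxed Prmt1. The Cre was therefore present in both genotypes, and it acts in B cells that transcribe the Cγ1 constant region, so deletion follows activation and need not reach every cell. Each library came from 1 mouse, and each genotype had 2 females and 1 male, the males being Control 1 and Prmt1-null 3. The ages of the mice are not given in the sources used here.

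Type I interferons bind the receptor made of IFNAR1 and IFNAR2, whose kinases JAK1 and TYK2 lead to the assembly of ISGF3, a complex that holds STAT2 and IRF9 and binds the interferon-stimulated response element (ISRE) in target promoters, while interferon-γ acts through the γ-activated site (GAS). Many of the targets are also kept at a basal level in resting and activated lymphocytes, and their products sense, block or degrade viral nucleic acid or attack the vacuoles of intracellular microbes.

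The response element is what these genes are known to share, so their promoters were searched for it. RefSeq promoter windows on GRCm38.p6, from 250 bases before to 50 bases after the start, were matched for 30 of the 40 genes. The ISRE was searched as GAAANNGAAA on either strand, so that it reads TTTCNNTTTC when it lies on the other strand. It was found in 19 of the 30 genes (63.3%), and in 1079 of 27025 genes in all (3.99%). The GAS was searched as TTCNNNGAA, which reads the same on both strands, and it was found in 10 of the 30 genes (33.3%) and in 2582 of all 27025 genes (9.55%). The motifs can share bases, and a match is a description of these letters only. The sites of the 6 genes with the highest level per length whose elements lie before the RefSeq start are shown, 5′ to 3′ on the gene's own strand, with up to 15 bases on each side and the ISRE in capitals. They belong to Trim30a at chr7:104465205-104465244 (minus strand), Gbp2 at chr3:142620594-142620623 (plus), Gbp3 at chr3:142559984-142560025 (plus), Irgm1 at chr11:48871428-48871457 (minus), Stat2 at chr10:128270261-128270300 (plus) and Igtp at chr11:58199507-58199546 (plus).
Trim30a: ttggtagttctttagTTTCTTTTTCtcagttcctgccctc
Gbp2: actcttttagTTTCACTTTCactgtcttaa
Gbp3: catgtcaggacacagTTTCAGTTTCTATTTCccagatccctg
Irgm1: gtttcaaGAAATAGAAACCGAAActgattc
Stat2: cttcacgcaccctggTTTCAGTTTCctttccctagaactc
Igtp: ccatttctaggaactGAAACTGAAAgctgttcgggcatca
The runs of Gbp3 and Irgm1 each hold 2 overlapping copies, which share 4 bases, and the other 4 runs hold 1. The annotations place some starts differently, and by GENCODE M21, whose transcripts of Gbp2 and Irgm1 reach further upstream, the elements of these genes lie within an annotated exon. Trim30a has a second RefSeq window, not shown, with another copy after its start. The genotypes' values for these 6 genes are given with their families below.

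Reads were counted over the exons of each gene, and totals ran from 45343250 to 62774232 counts per library. Levels are given as normalized counts, which are counts divided by the library's effective size and brought back to the mean size of the 6 libraries, so that 3 counts, the smallest number taken as detected, equal 2.63 to 3.64 normalized counts. The targeted gene, Prmt1, had 3964, 3925 and 4838 normalized counts in Control 1, 2 and 3 and 1745, 1478 and 1477 in Prmt1-null 1, 2 and 3, a log2 fold change of -1.44 ± 0.10 (SE, edgeR adjusted p = 1.11e-05). Residual transcript was thus measured in every Prmt1-null library. The B cell markers summed to 353964 to 390025 normalized counts per library. Prmt1-null library 1 stood apart from the other 5 libraries for the interferon-stimulated genes, as described further below, so some of the differences are also given without it.

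The genes were well covered by reads. Of the 40, 39 had a mean above 100 normalized counts and 21 a mean above 1000, while 7 lay below 300. Levels of different genes were compared as RPKM, counts scaled to the library's effective size and to the kilobases of exon. By this scale the highest was Ifi27l2a, a small hydrophobic membrane protein, at 170.5 RPKM in Control and 194.8 RPKM in Prmt1-null iGBs. Trim30a, a TRIM family protein that restrains inflammatory signaling, followed at 71.6 and 66.2 RPKM. Samhd1, a triphosphohydrolase that depletes deoxynucleotides, had 41.3 and 42.3 RPKM, Gbp2 33.3 and 42.7, Dtx3l 36.4 and 34.4, and Parp14 26.4 and 26.6. At the other end, Mx1, Ifi44 and Iigp1 were each below 1.1 RPKM in both genotypes, with Iigp1 at 0.149 and 0.388 RPKM. The genotypes overlapped in each of these 6 genes at the top. Over the 6 libraries Ifi27l2a, Trim30a and Samhd1 did not overlap one another, whereas Gbp2 overlapped both Samhd1 and Dtx3l and could not be ordered against them.

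**Figure D1:**
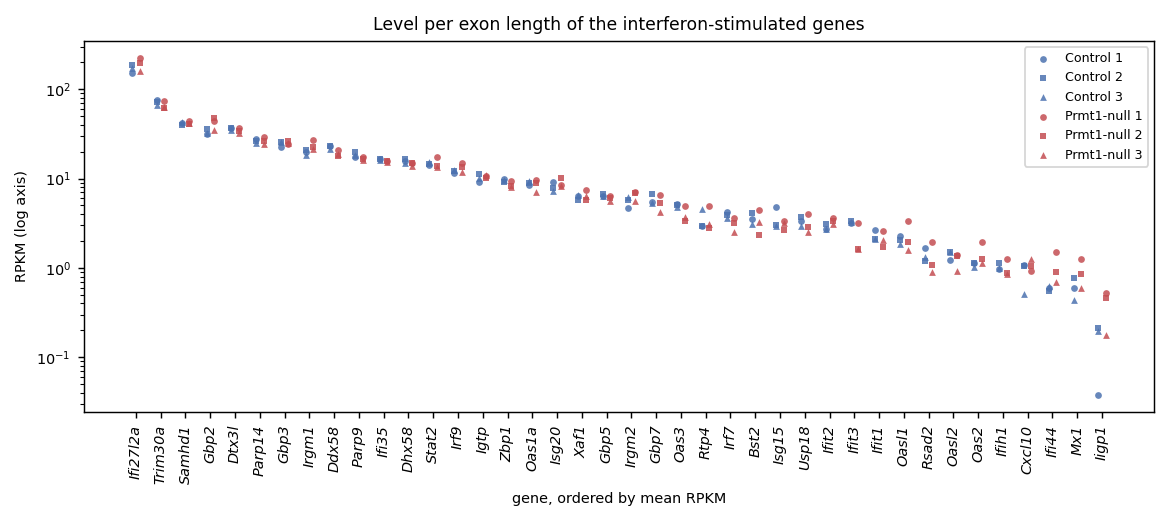
Level of each of the 40 genes per kilobase of exon in the 6 libraries, as RPKM on a log axis, ordered by the mean; blue marks are Control and red marks Prmt1-null libraries, and each mark is 1 library. Levels span from 170.5 RPKM (Ifi27l2a, Control mean) to 0.149 RPKM (Iigp1, Control mean), and for most genes the red and blue marks lie on top of each other.

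The question asked of these genes was whether their transcripts differ between Control and Prmt1-null iGBs. The fitted differences were small. Of the 40 genes, all of which passed the filter on low counts, 0 were called (edgeR quasi-likelihood test, Benjamini-Hochberg adjusted p under 0.05 over all 18268 genes tested and a mean above 100 normalized counts), where 1.18% of all genes tested were called, 0.58% as higher and 0.602% as lower in Prmt1-null iGBs. An unadjusted p under 0.05 was found for 9 of the 40 (22.5%), against 13.5% of all genes. The fitted log2 fold changes (Prmt1-null minus Control) were positive for 20 genes and negative for 20, with a median of -0.02 beside -0.00082 for all genes tested. They ran from -0.60 (Ifit3) to 1.36 (Iigp1). For 36 of the 40 genes the 95% interval of the difference lay within a 2-fold change in either direction, and for 24 it lay within 1.4-fold. In these bulk cultures a change in the number of cells that express a gene and a change in the transcript per cell cannot be told apart.

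Calls depended on the test. DESeq2 called 4 of the 40 genes, Gbp2, Irgm1 and Ifi44 as higher and Ddx58 as lower, with 4.08% of all genes called, and limma-voom called 0, with 1.36% of all genes called. Each of the 3 tools gave an unadjusted p under 0.05 for 9 of the 40 genes. With no filter on low counts edgeR called the same 4 genes and Oas3, with 2.63% of all genes called. Gbp2 alone was called with sex as a covariate, where 1.55% of all genes were called, and without Prmt1-null library 3, where 0.41% were called.

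**Figure D2:**
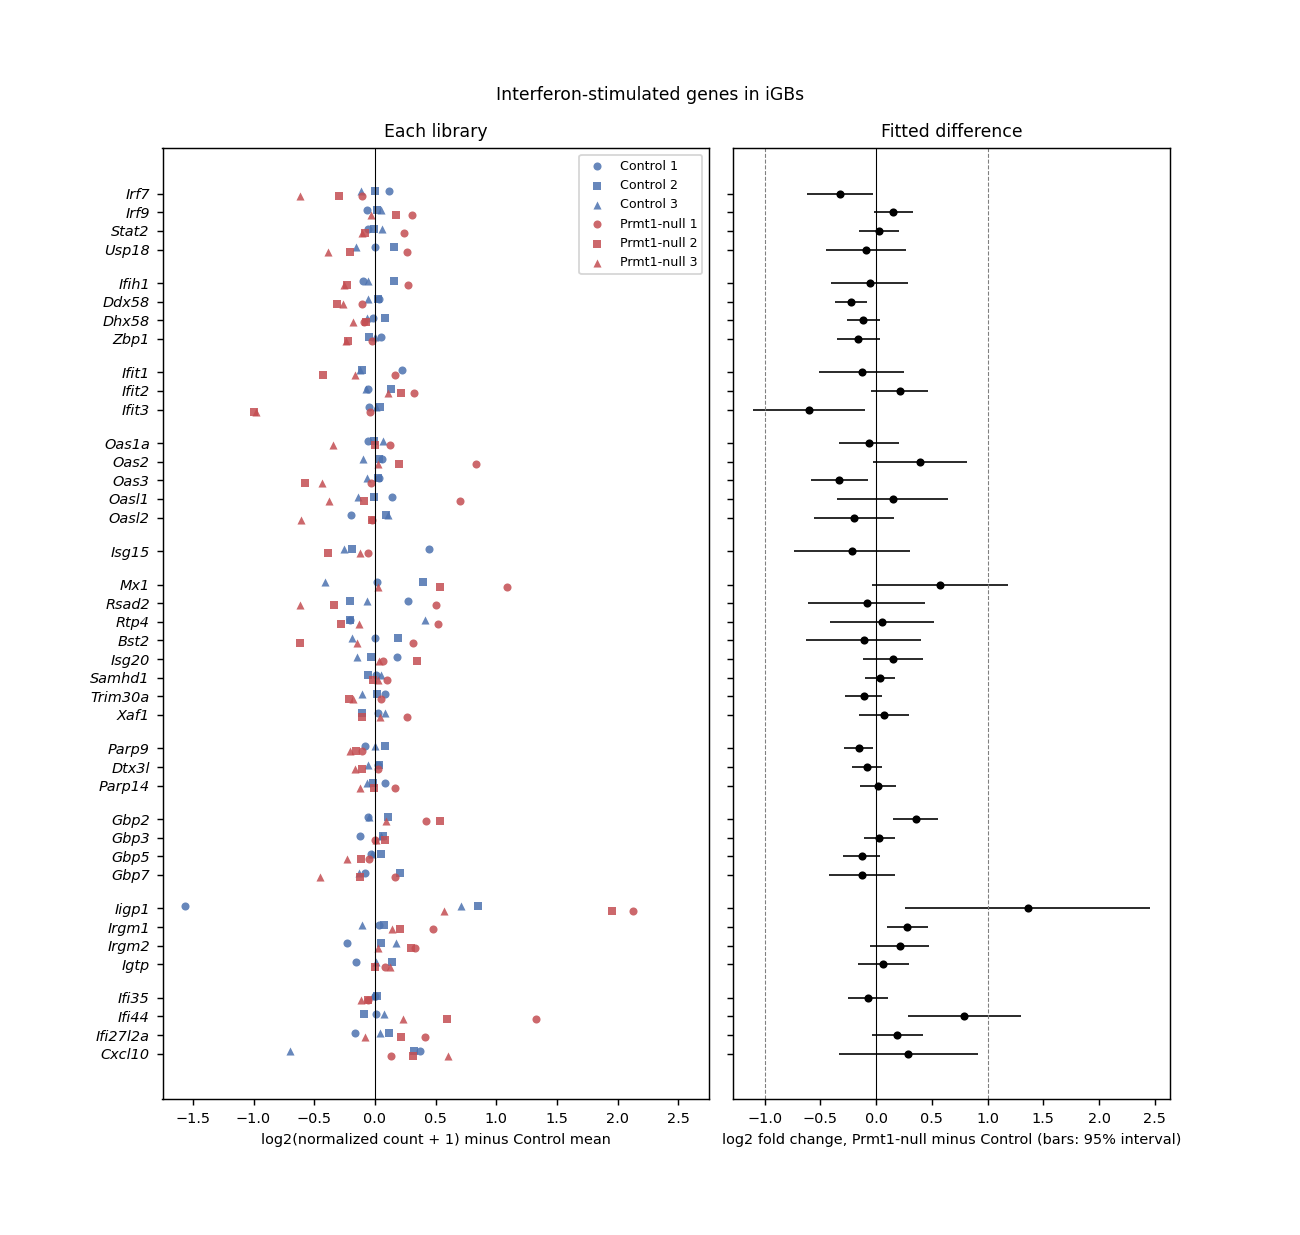
Left, each library's log2(normalized count + 1) minus the mean of the 3 Control libraries for the 40 genes, grouped by function (blue Control, red Prmt1-null, mark shape by library number); right, the fitted log2 fold change with its 95% interval, dashed lines at a 2-fold change. Intervals of 36 genes stay inside the dashed lines, and the red circles of Prmt1-null 1 lie to the right of the other red marks for most genes.

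Of the 40 genes, 7 had groups that did not overlap, 2 higher and 5 lower in Prmt1-null iGBs (9.95% of all genes did not overlap upward, 9.92% downward and 19.9% in either direction). The 2 higher genes were Irgm1 and Ifi44, and the 5 lower genes were Ddx58, Dhx58, Parp9, Gbp5 and Ifi35.

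The immunity-related GTPases, which load onto the membranes of vacuoles that hold intracellular parasites and bacteria, were positive in 4 of 4, with a median log2 fold change of 0.25. Irgm1, a regulatory member of the family (chr11:48861968-48871683, minus strand, mm10), had 6458, 6649 and 5851 normalized counts in Control 1, 2 and 3 and 8805, 7288 and 6948 in Prmt1-null 1, 2 and 3. Every Prmt1-null library lay above every Control library, with Prmt1-null 1 the highest. Its log2 fold change was 0.28 ± 0.08 (SE, edgeR adjusted p = 0.134), a 1.22-fold difference with a 95% interval of 1.07 to 1.38, and without Prmt1-null 1 it was 0.18 (edgeR adjusted p = 0.429). Iigp1, an effector of the family, was the lowest of all 40 genes, at 12.1, 69.4 and 62.8 normalized counts in Control 1, 2 and 3 and 169, 150.3 and 56.7 in Prmt1-null 1, 2 and 3. Control 1 was the lowest, with 10 counts before normalization, and Prmt1-null 3 lay within the Control range, so the groups overlapped. This was the largest fitted difference of the 40, a log2 fold change of 1.36 ± 0.51 (SE, edgeR adjusted p = 0.24), but the mean of 86.7 normalized counts was under the minimum for a call. Without Prmt1-null 1 it was 1.09 (edgeR adjusted p = 0.564). Its edgeR adjusted p ran from 0.00337 (no filter on low counts) to 0.564 over the alternatives, with 0.0325 when sex was a covariate, and it was not called in any of them, because its mean count lay under that minimum or its adjusted p missed the threshold. Irgm2 and Igtp, which are also regulatory members, overlap on chromosome 11, and 6.79% and 11.8% of their exon sequence is common to both. Irgm2 had 1142 ± 162 (SD, n = 3) normalized counts in Control and 1326 ± 151 (SD, n = 3) in Prmt1-null iGBs, and Igtp had 1146 ± 119 and 1199 ± 53.3. The libraries of the genotypes overlapped for both genes, and without Control 1 the log2 fold change of Igtp turned from 0.065 to -0.0058, which leaves 3 of 4 positive.

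The cytosolic nucleic acid sensors were negative in 4 of 4, with a median log2 fold change of -0.14. Ddx58, which encodes the RNA sensor RIG-I (chr4:40203773-40239828, minus strand), had 8975, 8948 and 8443 normalized counts in Control 1, 2 and 3 and 8155, 7066 and 7330 in Prmt1-null 1, 2 and 3. All Prmt1-null libraries lay below all Control libraries. The log2 fold change was -0.23 ± 0.07 (SE, edgeR adjusted p = 0.12), and it was -0.28 without Prmt1-null 1. Dhx58, which encodes LGP2, a partner of RIG-I-like receptors (chr11:100694884-100704271, minus strand), had 2849, 3044 and 2746 normalized counts in Control and 2706, 2735 and 2543 in Prmt1-null libraries. The groups were separated by less than the spread within either of them, and the log2 fold change was -0.11 (edgeR adjusted p = 0.517). Ifih1, which encodes the long-RNA sensor MDA5, had 468 ± 45.4 (SD, n = 3) and 451 ± 98.3 (SD, n = 3), and Zbp1, a sensor of Z-form nucleic acid, had 1870 ± 65.9 and 1676 ± 139. For Ifih1 the sign of the difference turned when Control 2, Prmt1-null 2 or Prmt1-null 3 was left out, with values from -0.25 to 0.04 over the 6 libraries left out in turn.

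Among the factors that relay and limit the signal, the 4 genes divided evenly, with a median log2 fold change of -0.03. Irf7, the factor that amplifies interferon production, had 812 ± 63.5 (SD, n = 3) normalized counts in Control and 648 ± 114 (SD, n = 3) in Prmt1-null iGBs, a log2 fold change of -0.33 ± 0.14 (SE, edgeR adjusted p = 0.303), or -0.44 without Prmt1-null 1. Irf9 and Stat2, the DNA-binding and activating subunits of ISGF3, had log2 fold changes of 0.16 and 0.03, and without Prmt1-null 1 these were 0.081 and -0.09. Usp18, which removes ISG15 from its targets and shuts off the type I receptor, had -0.09. The 95% intervals of Irf9 (-0.02 to 0.33) and Stat2 (-0.15 to 0.20) excluded a 1.4-fold change in either direction.

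The IFIT proteins bind foreign RNA and block its translation, and their genes lie together on chromosome 19. Ifit3 had 305, 324 and 316 normalized counts in Control 1, 2 and 3 and 307, 158 and 159 in Prmt1-null 1, 2 and 3. The 3 Control libraries and Prmt1-null 1 thus sat at one level, and Prmt1-null 2 and 3 sat near a lower one. The log2 fold change was -0.60 ± 0.23 (SE, edgeR adjusted p = 0.257), and without Prmt1-null 1 it was -0.99 (edgeR adjusted p = 0.0614). Of the Ifit3 exon sequence, 51.2% is shared in 50-base words with its copy Ifit3b. No gene of that name was found in the count table, so it is uncertain which copy the counts belong to. Ifit1 had a log2 fold change of -0.13 and Ifit2 one of 0.21, both with groups that overlapped.

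The OAS family makes or regulates the 2′-5′ oligoadenylates that activate RNase L. Its 5 genes were positive in 2 and negative in 3, with a median log2 fold change of -0.06. Oas2 had 283, 278 and 255 normalized counts in Control 1, 2 and 3 and 484, 313 and 277 in Prmt1-null 1, 2 and 3. Its difference rested on Prmt1-null 1, since the log2 fold change of 0.39 ± 0.20 (SE, edgeR adjusted p = 0.413) was 0.12 without that library. Oas3, the member that binds long RNA, went the other way, with 2022, 2011 and 1882 normalized counts in Control and 1929.8, 1325 and 1455 in Prmt1-null libraries. Prmt1-null 1 lay within the Control range and Prmt1-null 2 and 3 below it, and the log2 fold change was -0.33 ± 0.12 (SE, edgeR adjusted p = 0.225), or -0.50 without Prmt1-null 1 (edgeR adjusted p = 0.0731). Oas1a (-0.06), which shares 57.6% of its exon sequence with Oas1g, Oasl1 (0.15) and Oasl2 (-0.20) had groups that overlapped. Oas2 and Oas3 are neighbors on chromosome 5 and were fitted with opposite signs, which was not tested as a difference. Isg15, the ubiquitin-like modifier, had 150 ± 42.8 and 129 ± 15.3 normalized counts (SD, n = 3 each), with the highest value, 199, in Control 1.

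The other antiviral effectors were 5 positive and 3 negative, with a median log2 fold change of 0.04. Mx1, of the dynamin-like GTPase family, had 125, 162 and 92.6 normalized counts in Control 1, 2 and 3 and 263, 180 and 126 in Prmt1-null 1, 2 and 3. Only its transcript was measured here. Prmt1-null 1 and 2 lay above all Control libraries and Prmt1-null 3 among them, and the log2 fold change was 0.57 ± 0.28 (SE, edgeR adjusted p = 0.406), or 0.27 without Prmt1-null 1. Samhd1 had 21062, 20085 and 21718 normalized counts in Control and 22406, 20665 and 21374 in Prmt1-null libraries. The libraries differed little in either genotype, and the log2 fold change was 0.04 with a 95% interval of -0.10 to 0.17. Trim30a had 17311, 16538 and 15111 normalized counts in Control and 16861, 14021 and 14404 in Prmt1-null libraries, a log2 fold change of -0.11 (95% interval -0.28 to 0.06). Rsad2, which encodes viperin (-0.08), Rtp4 (0.05), Bst2, which encodes tetherin (-0.11), Isg20, an exonuclease (0.15), and Xaf1 (0.07) all had groups that overlapped. The intervals of Rsad2 (-0.61 to 0.44) and Bst2 (-0.63 to 0.41) were wide, at 126 to 461 counts per library before normalization.

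Parp9 and Dtx3l encode an ADP-ribosyltransferase and the ubiquitin ligase it pairs with, and the genes overlap head to head on chromosome 16. Parp9 had 4768, 5317 and 5020 normalized counts in Control 1, 2 and 3 and 4666, 4523 and 4370 in Prmt1-null 1, 2 and 3. The groups did not overlap, and the log2 fold change was -0.16 ± 0.06 (SE, edgeR adjusted p = 0.269). Dtx3l had 11722, 11806 and 11115 normalized counts in Control and 11719.7, 10755 and 10283 in Prmt1-null libraries, with Prmt1-null 1 inside the Control range and the other two below it. Parp14, a related transferase that takes part in IL-4 and STAT6 signaling, had 14362, 13467 and 12976 normalized counts in Control and 15232, 13503 and 12465 in Prmt1-null libraries. Its log2 fold change was 0.01 with a 95% interval of -0.15 to 0.18. The exons of Parp9 and Dtx3l overlap on opposite strands over 9.4% and 8.0% of their lengths, and the strand setting of the counting is not given in the sources used here, so part of their counts could come from either gene.

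The guanylate-binding proteins coat microbial membranes and help to open them to inflammasomes, and 4 of their genes lie in 1 cluster on chromosome 3. Gbp2 (chr3:142620602-142638008, plus strand) had the smallest p of the 40 genes. It had 4454, 4992 and 4499 normalized counts in Control 1, 2 and 3 and 6201, 6719 and 4936 in Prmt1-null 1, 2 and 3. Prmt1-null 1 and 2 were the highest libraries, and Prmt1-null 3 lay below Control 2, so the groups overlapped. The log2 fold change was 0.36 ± 0.09 (SE, edgeR adjusted p = 0.0895), a 1.28-fold difference with a 95% interval of 1.11 to 1.47. It was 0.33 without Prmt1-null 1 and 0.47 without Prmt1-null 3 (edgeR adjusted p = 0.305 and 0.0245), and DESeq2 gave an adjusted p of 0.0104. Gbp5 (chr3:142493978-142522344, plus strand, placed by its symbol because GENCODE M21 gives the gene ID of its counts to Gbp2b) had 2347, 2494 and 2371 normalized counts in Control and 2328, 2214 and 2047 in Prmt1-null libraries. Its groups did not overlap, with Prmt1-null 1 just under Control 1, and the log2 fold change was -0.13 (edgeR adjusted p = 0.495). Gbp3 had 0.03 (95% interval -0.11 to 0.17) and Gbp7 -0.12, both with groups that overlapped.

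Of the remaining 4 genes 3 were positive, with a median log2 fold change of 0.24. Ifi44, a GTP-binding-fold protein of uncertain function that interferon induces strongly (chr3:151730922-151749960, minus strand), had 203, 189.6 and 213 normalized counts in Control 1, 2 and 3 and 506, 304 and 237 in Prmt1-null 1, 2 and 3. All Prmt1-null libraries lay above all Control libraries, and Prmt1-null 1 lay far above the rest. The log2 fold change was 0.79 ± 0.24 (SE, edgeR adjusted p = 0.134), a 1.73-fold difference with a 95% interval of 1.22 to 2.46. Without Prmt1-null 1 it was 0.43 (edgeR adjusted p = 0.474). Ifi35, a partner of NMI (chr11:101448407-101458698, plus strand), had 1577, 1586 and 1551 normalized counts in Control and 1514, 1509.97 and 1451 in Prmt1-null libraries. These were the tightest groups of the 7 that did not overlap, with a log2 fold change of -0.08 (95% interval -0.26 to 0.11, edgeR adjusted p = 0.762), and 16.8% of its exons lie opposite the antisense gene Gm11626. Ifi27l2a had 3896, 4739 and 4499 normalized counts in Control and 5806, 5080.3 and 4119 in Prmt1-null libraries, and its groups overlapped at a log2 fold change of 0.19 (edgeR adjusted p = 0.463), or 0.074 without Prmt1-null 1. Cxcl10, a chemokine for CXCR3-bearing cells, had 110 ± 39.9 and 134 ± 22.5 normalized counts (SD, n = 3 each).

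Within the Prmt1-null genotype 1 library held the highest values of most of the genes. Among the 3 Prmt1-null libraries, library 1 was the highest for 34 of the 40 genes (85%), and for 32.1% of all genes tested. Prmt1-null 2 was the highest of the 3 for 4 genes and Prmt1-null 3 for 2 (34.1% and 33.7% of all genes). Prmt1-null 3 was the lowest of the 3 for 27 genes (34.3% of all genes). The Control libraries shared the genes more evenly, with Control 1 the highest of its group for 13, Control 2 for 18 and Control 3 for 9. Over all 6 libraries Prmt1-null 1 was the highest for 20 of the 40 genes (13.7% of all genes) and the lowest for 0 (14.3% of all genes).

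**Figure D3:**
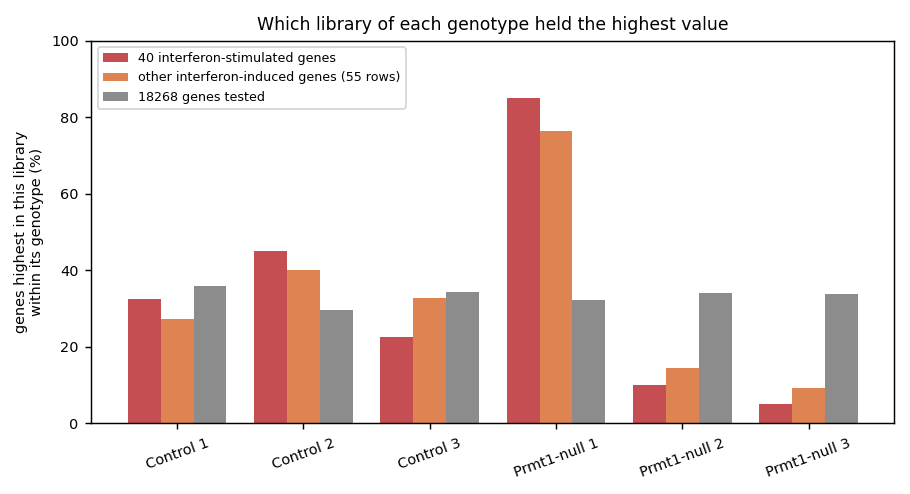
Percentage of genes whose highest value within their genotype fell in each library, for the 40 interferon-stimulated genes (red), 55 rows of other interferon-induced genes (orange) and all 18268 genes tested (grey). Prmt1-null 1 holds 85% of the 40 genes and 76.4% of the 55, against 32.1% of all genes.

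The size of this shift was modest for most genes. The median deviation of the 40 genes from their own mean over the 6 libraries was 0.219 on the log2 scale in Prmt1-null 1, -0.0447 in Prmt1-null 2 and -0.126 in Prmt1-null 3. It was -0.00447, 0.0424 and -0.0243 in Control 1, 2 and 3. The same median over all genes tested lay between 0.0023 and 0.0121 in the 6 libraries. Summed over the 40 genes, the libraries held 128859, 130206 and 126021 normalized counts in Control 1, 2 and 3 and 140564, 125329 and 119489 in Prmt1-null 1, 2 and 3. Prmt1-null 1 therefore lay above and Prmt1-null 2 and 3 lay below the range of the Control libraries. Gene by gene, Prmt1-null 1 exceeded all 3 Control libraries for 21 of the 40 genes (25.5% of all genes), and Prmt1-null 3 was below all 3 for 21 (26.5% of all genes). Prmt1-null 2 was above all 3 for 12 (30% of the 40 and 27.1% of all genes) and below all 3 for 20 (50% of the 40 and 26.01% of all genes).

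**Figure D4:**
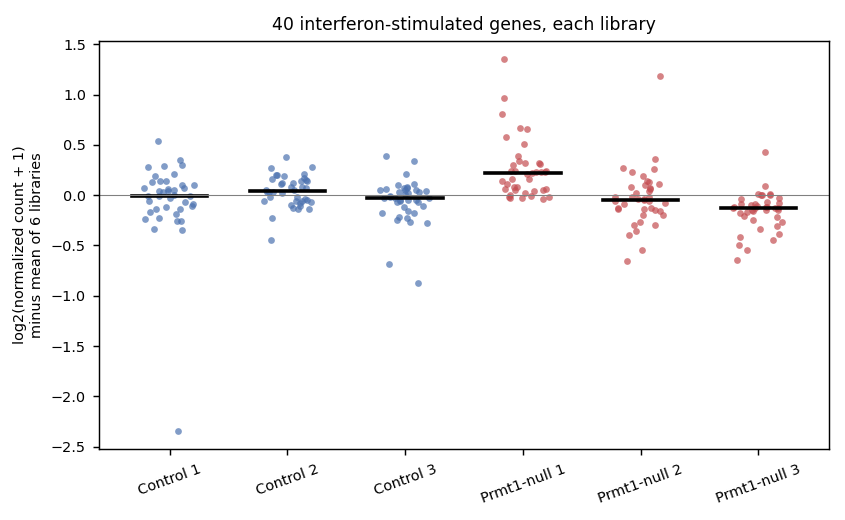
Deviation of each of the 40 genes from its mean over the 6 libraries, as log2(normalized count + 1), in each library; points are genes, bars are medians, and points are spread sideways only to be seen. The median is 0.219 in Prmt1-null 1 and -0.126 in Prmt1-null 3, and the medians of the 3 Control libraries lie between.

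The 5 genes with the largest excess of Prmt1-null 1 over the Control mean, chosen after their values were seen, were Iigp1 (2.13 on the log2 scale), Ifi44 (1.32), Mx1 (1.09), Oas2 (0.83) and Oasl1 (0.70). The mean of Prmt1-null 2 and 3 differed from Control by 1.26, 0.41, 0.28, 0.11 and -0.23 for the same genes. The 8 genes with the highest level per length differed between Prmt1-null 1 and the Control mean by 0.41 (Ifi27l2a), 0.049 (Trim30a), 0.10 (Samhd1), 0.42 (Gbp2), 0.02 (Dtx3l), 0.16 (Parp14), 0.0022 (Gbp3) and 0.48 (Irgm1). The spread of the genes within a genotype followed the same pattern. The median SD of log2 values over 3 libraries was 0.101 in Control and 0.212 in Prmt1-null iGBs, whereas for all genes tested it was 0.169 and 0.139. The SD was larger in Prmt1-null iGBs for 31 of the 40 genes (77.5%) and for 39.6% of all genes.

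Leaving out Prmt1-null 1 moved the balance of the 40 genes to 15 positive and 25 negative, with a median log2 fold change of -0.13. Leaving out Prmt1-null 3 moved it to 25 positive and 15 negative, with a median of 0.04. Sex was split the same way in both genotypes. Within the females (2 against 2) the median difference of the 40 genes was 0.024, with 22 positive, and between the males (1 against 1) it was -0.15, with 15 positive. Prmt1-null 1 is a female library and Prmt1-null 3 the male one, and with 1 male per genotype this difference has no replicate.

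Differences between genotypes were small with and without an ISRE in the promoter window. The 19 genes with the motif had a median log2 fold change of -0.08 (7 positive and 12 negative), the 11 without it 0.07 (7 and 4) and the 10 with no matched window 0.03 (6 and 4). Prmt1-null 1 was the highest of all 6 libraries for 7 of the 19, 6 of the 11 and 7 of the 10 (13.7% of all genes). These counts are a description and were not tested. Of the genes whose elements are printed above, Irgm1 and Gbp2 had positive log2 fold changes, Trim30a had a negative one, and Stat2, Gbp3 and Igtp had values of 0.03, 0.03 and 0.065.

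The pathway around these genes was followed with a list of 119 further genes for interferon production, reception and response, of which 116 were in the table. The filter was passed by 97 of them in 98 rows, since Gbp11 has 2 gene IDs with nearly the same counts, and 0 rows were called. An unadjusted p under 0.05 was found for 13 of the 98 rows (13.3%, against 13.5% of all genes), with 52 positive and 46 negative differences, and DESeq2 called 1 row where it called 4.08% of all genes. Reads from the ligands were few. Of the 17 ligand genes found, 14 had 0 counts in all 6 libraries, Ifnb1 among them, and a count of 0 in a library allows up to 2.63 to 3.64 normalized counts. The 3 ligands with reads were Ifna13 at 8 to 37 counts per library, Ifnk at 2 to 53 and Ifng at 0 to 14. Ifng had 2.43, 0 and 11.0 normalized counts in Control 1, 2 and 3 and 14.2, 7.37 and 2.84 in Prmt1-null 1, 2 and 3, too few to be tested.

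The receptor chains and kinases were well expressed in both genotypes. Ifnar1 had 5003, 4752 and 4921 normalized counts in Control 1, 2 and 3 and 5221, 5158 and 5174 in Prmt1-null 1, 2 and 3, a log2 fold change of 0.08 (edgeR adjusted p = 0.556) with groups that did not overlap. Ifnar2 had -0.05, Ifngr1 0.05 and Ifngr2 0.08. Ifnlr1, the interferon-λ receptor chain, named after its values were seen, had 836, 682 and 881 normalized counts in Control and 938, 929 and 1044 in Prmt1-null libraries. Its groups did not overlap, and the log2 fold change was 0.28 ± 0.12 (SE, edgeR adjusted p = 0.318). Jak2, which serves the interferon-γ receptor, was lower in all 3 Prmt1-null libraries, at 4291, 4367 and 3792 normalized counts against 4972, 4917 and 4420.4, a log2 fold change of -0.20 (edgeR adjusted p = 0.214). Jak1 (-0.03) and Tyk2 (0.06) overlapped. The factors Irf1 (0.19, or 0.052 without Prmt1-null 1) and Irf8 (0.07), the inhibitor Socs1 (-0.02) and the adaptors Mavs (-0.15) and Tmem173, which encodes STING (0.04), had groups that overlapped. Of the 7 genes listed for IRF factors and their partners, 6 were positive and 2 did not overlap, both higher, with an unadjusted p under 0.05 for 0. The DNA sensor Mb21d1, which encodes cGAS, also overlapped (-0.81, at 34 to 121 counts per library before normalization). Its Control libraries were uneven, at 147, 84.3 and 41.9 normalized counts in Control 1, 2 and 3, against 62.8, 31.3 and 61.4 in Prmt1-null 1, 2 and 3. Tlr3, the endosomal receptor for double-stranded RNA, also named after its values were seen, had 211, 327 and 177 normalized counts in Control and 159.98, 129.98 and 139 in Prmt1-null libraries. Its groups did not overlap either, and the log2 fold change was -0.74 ± 0.23 (SE, edgeR adjusted p = 0.157). Over the 98 rows of the list, 9 had groups that did not overlap upward and 8 downward. The shares over all genes were 9.95% and 9.92%, so such separations were not more frequent in this list.

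The other interferon-induced genes on this list, 55 rows that passed the filter with Gbp11 counted in 2, had the same order of libraries. Prmt1-null 1 was the highest of its group for 42 of the 55 (76.4%), and the median deviation on the log2 scale was 0.158 in Prmt1-null 1, -0.057 in Prmt1-null 2 and -0.122 in Prmt1-null 3. The Control libraries lay between, at 0.0238, 0.044 and -0.0218. In the comparison of genotypes 26 of the 55 were positive and 29 negative, with a median log2 fold change of -0.05 and the lowest edgeR adjusted p, 0.109, for Herc6. Herc6, the main ligase that attaches ISG15 in mice, had 1692, 1793 and 1474 normalized counts in Control and 1385, 1271 and 1199.6 in Prmt1-null libraries, a log2 fold change of -0.36.

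Markers of other cells that such cultures may hold were also summed in each library. The 12 feeder fibroblast markers summed to 1658, 1936 and 1866 normalized counts in Control 1, 2 and 3 and 1837, 2032 and 2323 in Prmt1-null 1, 2 and 3, so that Prmt1-null 1 lay within the Control range, and 1 of the 12, Postn, had 0 counts in every library. Thy1 was the largest part of the feeder sums, at 616 to 846 normalized counts. The 5 macrophage and monocyte markers summed to 1643 in Prmt1-null 1, the lowest of the 6 libraries, and to 1987 in Prmt1-null 2, the highest. Cd68 made up most of these sums, at 1344 to 1696. The 6 dendritic cell markers summed to 5757 to 6160 (6159.8). Most of this came from Flt3 (4559 to 5015) and Zbtb46 (758 to 934), while Itgax had 0 to 35. Siglech, which defines plasmacytoid dendritic cells, had 0 counts in 4 libraries and 4 or fewer in the others. The dendritic list includes Bst2, which is also 1 of the 40 genes. These sums rest largely on few genes, so they are not amounts of other cells. The 6 T and NK cell markers were scarce but did place Prmt1-null 1 highest, at 189 normalized counts in sum against 47.4, 144 and 99.2 in Control 1, 2 and 3 and 129.98 and 113 in Prmt1-null 2 and 3. Of the 25 rows of these markers that were tested 0 were called, and 4 (16%, against 13.5% of all genes) had an unadjusted p under 0.05, of which 3 were feeder markers. Of the 11 feeder markers tested 9 had positive differences. Of the 14 rows for B cell and germinal center markers 0 were called and 6 had an unadjusted p under 0.05. The part of these cells in the level of the interferon-stimulated genes was not tested.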

How the data were processed

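Counts of RNA-seq reads were analysed from 6 libraries of iGBs, 3 Control and 3 Prmt1-null. Per the labels and methods, the authors trimmed reads (Trimmomatic 0.32), aligned them to mm10 (STAR 2.3.0e) and assigned primary alignments with no more than 2 locations to the exonic regions of Ensembl genes (featureCounts 1.4.4). The deposited counts are raw, with 1 whole number per gene and library. Alignments to 2 places can credit a read to a close copy of a gene. The kit was stranded, and the strand setting of the counting is not given in the sources used here.

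The 40 genes, the pathway list and the marker lists were chosen with earlier results of these data known. Groups, sexes and replicate numbers came from the labels. In R 4.3.3, edgeR 4.0.16 (TMM, filterByExpr with a minimum count of 10, glmQLFit and glmQLFTest, two-sided) tested 18268 genes after the 398 genes of chromosome Y were left out, with Benjamini-Hochberg adjustment over all of them. A call needed an adjusted p under 0.05 and a mean above 100 normalized counts. The study's methods used DESeq2, which was run here as an alternative. P-values measure the spread between 3 mice per genotype. The fit was tested on simulated data with known answers. Intervals are at the 95% level, and floors of 3 counts cover counting error only, since reads carried no molecular identifiers. Deviations of single libraries used log2 of the normalized count plus 1. RPKM used TMM effective sizes and the union of GENCODE M21 exons, with 37612 genes matched by ID, 803 by symbol, 81 by symbol because their ID now belongs to another gene (Gbp5 among them) and 521 not matched. Promoters came from RefSeq on GRCm38.p6. Of the 40 genes, values in every library are given for those whose groups did not overlap, the 6 with the largest absolute log2 fold change and the 6 with the highest level per length. Oas3 is given in the same way beside Oas2, and other genes by means, ranges, counts or the log2 fold change alone. From the pathway list the receptor, kinase, factor and sensor genes and ligands with at least 10 counts in a library are named, and Herc6, Ifnlr1 and Tlr3 were named after their values were seen. A further gene of that list is not reported here. Alternatives were DESeq2 1.42.0 with and without a prior, limma-voom (limma 3.58.1), DESeq2 size factors in edgeR, no filter, a replicate block, sex as a covariate, chromosome Y kept, no minimum mean and each library left out in turn.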

Additional observations from a re-analysis of the deposited data

How the results depend on the processing

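Prmt1 was called under each alternative, with log2 fold changes from -1.52 to -1.23. The median log2 fold change of the 40 genes ran from -0.13 to 0.04 over the alternatives, the extremes being those without Prmt1-null 1 and without Prmt1-null 3. Calls among the 40 genes, 0 by edgeR, numbered 4 by DESeq2 with and without a prior, 5 with no filter on low counts and 1 (Gbp2) with sex as a covariate, and from 0 to 1 with each library left out. Calls in the pathway list, also 0 by edgeR, numbered 1 by DESeq2 with and without a prior (Herc6), 3 with no filter (Herc6, Tlr3 and Lgals3bp) and from 0 to 1 with each library left out (Herc6 without Control 3). Calls over all genes, 216 by edgeR, numbered 746 by DESeq2 with and without a prior, 675 with no filter and from 31 to 340 with each library left out, the lowest without Prmt1-null 2 and the highest without Control 3. The cause of these shifts was not tested. Low counts limit Iigp1, Mx1, Isg15, Cxcl10 and Bst2 most.

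Same-numbered libraries did not deviate together (correlations of -0.0747, 0.0445 and -0.0775 for numbers 1, 2 and 3). Whether the numbers pair mice is not given in the labels, and these correlations cannot decide it. A replicate block moved the calls over all genes to 151 and those among the 40 genes to 1 (Gbp2, edgeR adjusted p = 0.0471), and left the pathway list at 0.

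The sign of some small differences, 0 of them called, turned with 1 library. With each library left out, the log2 fold change ran from -0.34 to 0.043 for Isg15, from -0.48 to 0.13 for Rsad2, from -0.23 to 0.29 for Rtp4, from -0.023 to 0.064 for Gbp3, from -0.0058 to 0.14 for Igtp, from -0.25 to 0.036 for Ifih1, from -0.063 to 0.078 for Parp14, from -0.0900 to 0.0878 for Stat2, from -0.23 to 0.36 for Oasl1, from -0.028 to 0.16 for Xaf1, from -0.30 to 0.0086 for Ifit1, from -0.37 to 0.098 for Bst2, from -0.30 to 0.0402 for Usp18, from -0.16 to 0.063 for Oas1a and from -0.29 to 0.0203 for Gbp7. In the pathway list it ran from -0.12 to 0.021 for Ifnar2, from -0.029 to 0.11 for Ifngr1, from -0.16 to 0.12 for Socs1, from -0.051 to 0.0024 for Jak1 and from -0.018 to 1.19 for Ifnk. With sex as a covariate the log2 fold change of Socs1 was 8.17e-06, which is close to no difference, and Socs1 was not called.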
